A study of Rattus norvegicus with 14 samples.

Results

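Sparc, Tgfbi and Emilin1 encode 3 secreted proteins of the extracellular matrix. Rows of the deposited table of transcription start sites (TSSs) were taken by these gene symbols, which gave 5 TSSs of the 4993 in the table and 3 of its 2993 named genes. Sparc and Emilin1 had 2 TSSs each and Tgfbi had 1. In a gene with 2 TSSs, the one with the higher level in nerve is called the main TSS and the other, which lay upstream of it in both genes, the upstream TSS.

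SPARC is a matricellular protein, which binds collagens and modulates cell contact with the matrix rather than building fibres itself. TGFBI, named for its induction by TGF-beta, is an adhesion protein of the matrix that binds integrins and collagens. EMILIN1 is a glycoprotein at the surface of elastic fibres that restrains the maturation of TGF-beta precursors. In peripheral nerve, Schwann cells deposit a basal lamina around each axon-Schwann cell unit, and fibroblasts between the fibres deposit collagen. SOX10 is the transcription factor that specifies and maintains the Schwann cell lineage.

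The study mapped the 5' ends of RNAs by Tn5Prime, a template-switching RNA-Seq method, in rat samples and asked which TSSs near SOX10-bound promoters depend on differentiation or on SOX10. The 14 libraries fall into 5 groups. Levels are reads at a TSS per 1000000 reads of the library (RPM). Since the method reads the 5' ends of RNAs, levels of different genes are set side by side without a correction for length. Whether RNAs of different genes are captured and copied equally well was not tested. Libraries held between 29895599 and 79940274 reads, and 3 reads, the limit that a count of 0 allows, correspond to 0.0375 to 0.1003 RPM. Such limits, and the intervals on read shares given here, cover counting error only, since reads that PCR copied from 1 molecule could not be told apart.

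The sciatic nerve group held 2 libraries from independent sciatic nerves of wild-type adult rats aged 6 to 9 months. Wild-type primary rat Schwann cells were kept in medium with 10% fetal bovine serum, neuregulin and forskolin, an agent that itself raises cAMP. They were plated on laminin in this medium and then moved to medium without neuregulin and forskolin. Serum was at 5% during the treatment. In the cAMP group (3 libraries) 250 µM CPT-cAMP, a cell-permeable cAMP analogue that raises myelin gene expression, was present for 3 days. The control group (3 libraries) received vehicle. Parental S16 cells (2 libraries) are an unmodified, immortalized rat Schwann cell line. They and the clones made from them were grown in 10% serum. The ΔSOX10 group held 4 libraries, each from 1 clone of S16 cells (1-1, 1-2, 2-1 and 2-2) whose Sox10 coding sequence was disrupted with Cas9, using 2 guide RNAs. Comparing ΔSOX10 with parental S16 cells therefore also compares single-cell clones, grown after editing and selection, with an uncloned line. Sox10 read 77.5 and 90.7 RPM in parental cells and 0 to 0.114 RPM in the clones. The primary-cell libraries went through another sequencer type than those of nerve and the S16 line. In a comparison across these sources, neither the sequencer nor the culture medium can be told apart from the cells. In whole nerve, fewer cells of a type and less RNA per cell cannot be told apart.

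The 5 TSSs lie on the minus strand of the rn5 rat genome and were assigned to the genes by the study. The Sparc main TSS is a cluster of 160 bp at chr10:40595229-40595388, and its upstream TSS is 8 bp wide at chr10:40595531-40595538, 143 bp away. The Tgfbi TSS spans 149 bp at chr17:10605586-10605734. The Emilin1 main TSS is 5 bp wide at chr6:36636612-36636616, and the upstream TSS is 2 bp wide at chr6:36638374-36638375, 1758 bp away. The median over all TSSs was 57 bp, so the Sparc main TSS and the Tgfbi TSS were broader and the other 3 TSSs narrower. The narrow ones had few reads, and whether width depends on the number of reads was not tested. The table pairs each TSS with a peak of H3K4me3, a histone mark of active promoters, and a SOX10 peak, both mapped by ChIP-Seq in rat sciatic nerve. The Tgfbi TSS overlapped its SOX10 peak, which is 200 bp wide, and the Emilin1 main TSS lay inside a SOX10 peak of 600 bp. The SOX10 peak listed for Sparc, 400 bp wide, lay 1230 bp downstream of the main TSS. Among all TSSs, 51.7% overlapped their SOX10 peak. The Sparc H3K4me3 peak was 7703 bp wide, against 3283 bp for Tgfbi and 2031 bp for Emilin1. Of the members, the Emilin1 upstream TSS was outside its H3K4me3 peak, by 680 bp, and 88.4% of all TSSs overlapped theirs.

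**Figure D1:**
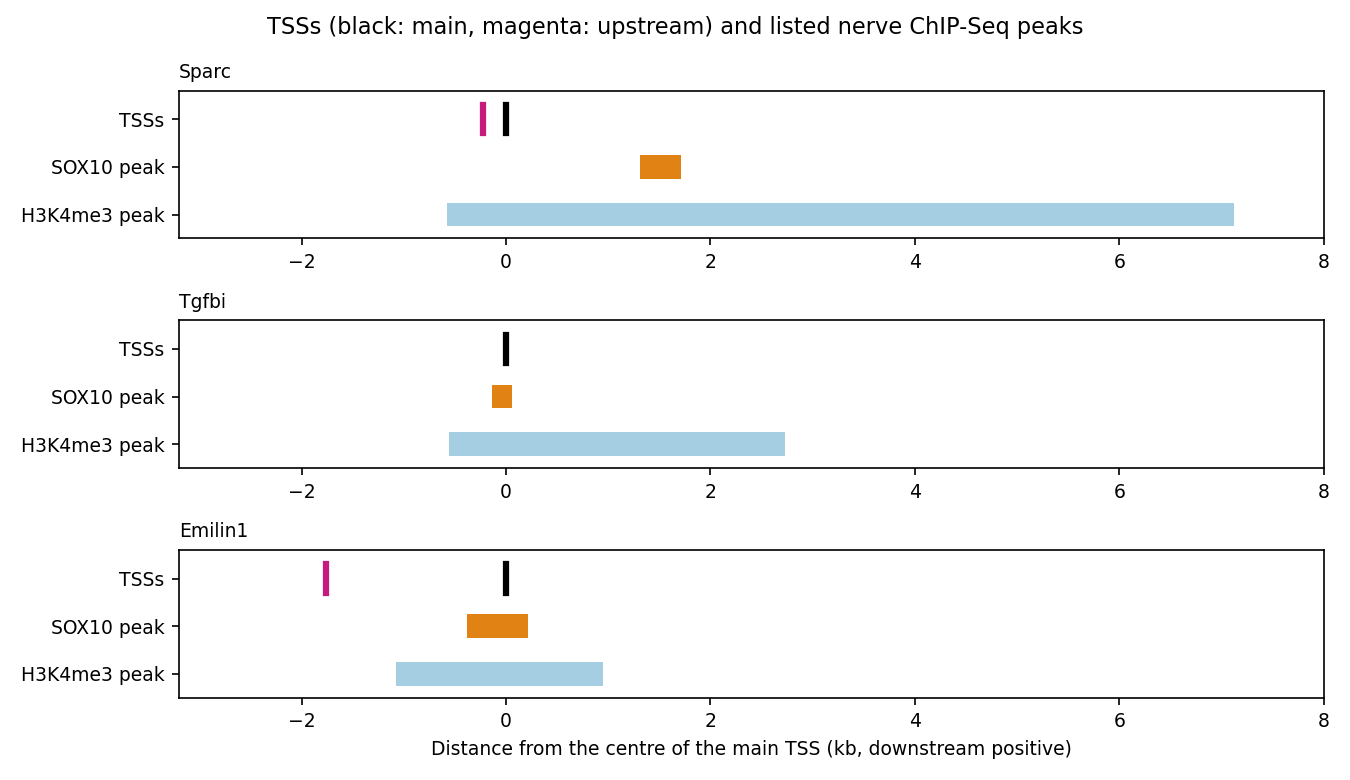
Position of each TSS and of the paired nerve ChIP-Seq peaks for Sparc, Tgfbi and Emilin1, in kb from the centre of the main TSS with downstream positive. Black and magenta ticks are main and upstream TSSs, and bars are peaks to scale. The SOX10 peak overlaps the TSS of Tgfbi and covers the main TSS of Emilin1, whereas that of Sparc starts 1230 bp downstream of it.

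The promoters of Sparc and Tgfbi are shown because both genes read higher than Emilin1 in every group and because their windows differ in base composition. Of the 3 genes, 2 had a promoter in the RefSeq set for the rat build GRCr8, which covers 250 bases before and 50 after the annotated start, and Emilin1 was not matched. Capitals mark the 50 transcribed bases, and both sequences are on the minus strand, 5' to 3'. The Sparc window is chr10:40038767-40039066 and the Tgfbi window chr17:7990064-7990363, in GRCr8 and not in rn5, so the windows were not aligned with the TSS clusters above.
Sparc: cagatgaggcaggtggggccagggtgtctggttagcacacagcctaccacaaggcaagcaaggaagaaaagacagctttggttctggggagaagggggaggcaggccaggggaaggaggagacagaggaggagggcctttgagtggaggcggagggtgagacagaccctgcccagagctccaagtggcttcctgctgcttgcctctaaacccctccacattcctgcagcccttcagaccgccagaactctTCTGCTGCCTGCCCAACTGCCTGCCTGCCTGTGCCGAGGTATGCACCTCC
Tgfbi: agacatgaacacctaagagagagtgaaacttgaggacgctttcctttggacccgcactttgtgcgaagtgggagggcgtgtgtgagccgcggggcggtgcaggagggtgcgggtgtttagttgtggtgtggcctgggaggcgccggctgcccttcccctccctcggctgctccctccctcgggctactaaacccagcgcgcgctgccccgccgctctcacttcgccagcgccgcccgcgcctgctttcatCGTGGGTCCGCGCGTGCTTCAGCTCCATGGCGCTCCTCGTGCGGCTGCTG

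The Sparc window, with 61% G or C, held 3 CpG dinucleotides, and 22.3% of the 33469 RefSeq promoters of the same length held fewer. In the Tgfbi window, with 66.7% G or C, there were 29 CpGs, and 88.5% of promoters held fewer. The medians over all promoters were 51.7% and 7 CpGs. Both strands were searched for ACAAAG and AACAAT (forms of the SOX core), TATAAA (the TATA box), TGACG and TGACGTCA (the cAMP response element, the shorter contained in the longer). The only match in either window was ACAAAG in Tgfbi, on the opposite strand from position -194 relative to the start, where the printed strand reads ctttgt. Among all promoters, 18.8% held ACAAAG, 11.7% AACAAT, 14.2% TATAAA, 21.2% TGACG and 1.83% TGACGTCA. A match is a description of the letters in the window and not a bound site.

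The 4993 TSSs held 28.7 to 37.0% of the reads of a library. Among them, the Sparc main TSS was among the highest in every group. It read 4174 and 3962 RPM in nerve. In control cells it read 7219, 6818 and 7143 RPM, and in cAMP-treated cells 6658, 6490.5 and 7008 RPM. Parental S16 cells had 7340.3 and 6549 RPM, and the ΔSOX10 clones 1-1, 1-2, 2-1 and 2-2 had 3878, 4679, 8863 and 5735 RPM. The nerves lay below every control, cAMP and parental library, while the clones spanned from below the lower nerve to above all other libraries.

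The group means ± SD were 4068 ± 149.9 (nerve, n = 2), 7059.7 ± 213 (control, n = 3), 6719 ± 264 (cAMP, n = 3), 6945 ± 559 (parental, n = 2) and 5789 ± 2186 RPM (ΔSOX10, n = 4). In the order of means (control, parental, cAMP, ΔSOX10, nerve), the ranges of each pair of neighbours overlapped. By mean level the Sparc main TSS ranked 7th of 4993 in nerve and 3rd in each of the other 4 groups.

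The Tgfbi TSS was high in control cells and low elsewhere. Nerve had 12.4 and 14.7 RPM. Control cells had 421, 527 and 473 RPM, and cAMP-treated cells 23.4, 37.4 and 28.5 RPM. Every control library lay above every library of the other groups. Parental S16 cells had 43.6 and 48.0 RPM. Clones 1-1, 1-2, 2-1 and 2-2 had 29.1, 18.9, 4.21 and 7.61 RPM, all below both parental libraries.

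The Tgfbi means ± SD were 13.6 ± 1.62 in nerve (n = 2), 473 ± 53.4 in control (n = 3), 29.8 ± 7.11 in cAMP (n = 3), 45.8 ± 3.11 in parental (n = 2) and 15.0 ± 11.3 RPM in ΔSOX10 cells (n = 4). The control mean was 34.9 times that of nerve and 10.3 times that of parental S16 cells. The order was control, parental, cAMP, ΔSOX10, nerve. Control did not overlap parental, nor parental cAMP, whereas cAMP overlapped ΔSOX10 and ΔSOX10 overlapped nerve. The mean ranked 141st of 4993 in control, and between 994th and 1725th in the other groups.

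Emilin1 was low in all groups, at 0 to 5.37 RPM. Its main TSS read 0.702 RPM (21 reads) and 5.37 RPM (206 reads) in the nerves. In control cells it was read in 1 of 3 libraries, at 0.140 RPM (8 reads). The cAMP libraries had 1.65 RPM (132 reads), 1.57 RPM (88 reads) and 0. Parental S16 cells had 0.520 RPM (23 reads) and 1.81 RPM (70 reads), and all 4 ΔSOX10 clones had 0. The nerve, cAMP and parental groups overlapped one another. That 1 cAMP library had no read while the others had 88 and 132 is a spread beyond counting error, so the level of this TSS within a group is poorly determined.

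**Figure D2:**
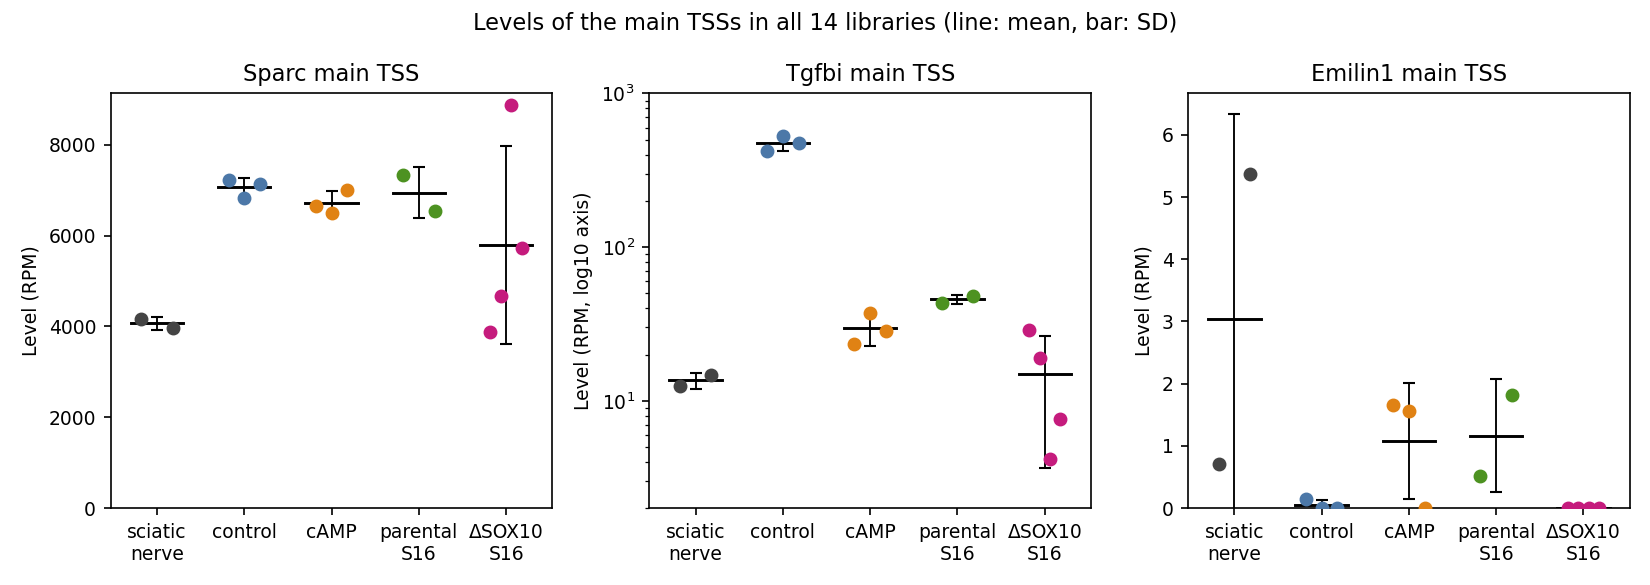
Level of the main TSS of Sparc, Tgfbi (log10 axis) and Emilin1 in RPM, 1 point per library, with the group mean (line) and SD (bar, not drawn below 0) for sciatic nerve (n = 2), control (n = 3), cAMP (n = 3), parental S16 (n = 2) and ΔSOX10 S16 (n = 4). Sparc lies between 3878 and 8863 RPM in all 14 libraries, Tgfbi is highest in the control libraries at 421 to 527 RPM, and Emilin1 stays at or below 5.37 RPM with 0 in the 4 clones.

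The upstream TSSs were scarce and were read in few libraries. Since TSSs were defined in nerve, every TSS of the table read at least 2.08 RPM in 1 nerve or both. That a scarce TSS was read in nerve and less elsewhere is therefore partly fixed by this choice of rows. The same holds for the Emilin1 main TSS. The Sparc upstream TSS read 2.58 RPM (77 reads) and 6.41 RPM (246 reads) in the nerves and 1.47 RPM (96 reads) in 1 control library, with 0 in the 11 others. It held 0.0617% and 0.162% of the Sparc reads of the nerves, with 95% Clopper-Pearson intervals of 0.0487 to 0.0771% and 0.142 to 0.183%. In that control library the share was 0.0215% (0.0174 to 0.0263%). A count of 0 in the largest other library, with 532220 Sparc reads, allowed a share of up to 0.000564%.

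The Emilin1 upstream TSS was read in 1 library of the 14, a nerve, at 4.77 RPM. There it held 183 of 389 Emilin1 reads, or 47.0% (Clopper-Pearson 42.0 to 52.1%). The other nerve had 0 of 21 reads, which allowed a share of up to 14.3%. The 2 nerves therefore differed in this share of reads by more than the counting of reads allows. As PCR copies could not be told apart, the number of RNA molecules behind these reads is unknown. A difference in the start used was not shown. Since the table lists TSSs defined in nerve, a start used in cultured cells alone would not be among its rows.

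To ask how the genes responded to differentiation, cAMP-treated were compared with control cells by limma on log2(RPM + 1), over the 4119 TSSs above 1 RPM in at least 2 of the 6 libraries. Log2 fold changes on this scale understate the change of low TSSs. Of the 5 member TSSs, the 3 main TSSs were tested, and 1, Tgfbi, passed an adjusted p of 0.05. Over all TSSs tested, 12.9% were called higher and 11% lower.

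Tgfbi fell by 3.97 on the log2 scale with cAMP (SE 0.156, 95% interval -4.29 to -3.64, limma adjusted p = 8.91e-15), a 15.9-fold difference between the group means. It was the 9th most negative change of the 4119. All 3 cAMP libraries lay below all 3 control libraries, as groups did without overlap at 36.6% of TSSs. For Sparc the log2 difference was -0.07 (SE 0.041, interval -0.16 to 0.01, adjusted p = 0.236), so a decrease beyond -0.16 lies outside the interval. For the Emilin1 main TSS it was 0.86 (SE 0.636, interval -0.46 to 2.18, adjusted p = 0.374), an interval that spans both directions. Its size depended on the settings, at 0.26 with a pseudocount of 5, 2.31 with 0.1, 4.47 by edgeR and 4.52 by DESeq2, and it was called under none of them. The upstream TSSs did not pass the filter.

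Of the fibroblast markers, Col1a1 moved in the same direction as Tgfbi with cAMP. Of 6 markers, 2 were in the table (Col1a1, the chain of type I collagen, and Pdgfra, a receptor of fibroblasts and their precursors), and their sum was 789.6 to 892 RPM in control and 366 to 459 RPM in cAMP libraries. Col1a1 made up nearly all of it, since Pdgfra was at 0 in the 3 control libraries and in 2 of the 3 cAMP libraries. The remaining 4 markers have no row here. The fibroblast sum was also high, at 2201 to 2771 RPM in parental S16 cells and 2910.2 to 5171 RPM in the clones, where Tgfbi was low, and 98.7 to 114 RPM in nerve. The Schwann cell markers Sox10, S100b, Mbp and Pmp22 summed to 2173 to 2293 RPM in control and 2899 to 3273 RPM in cAMP cells, 46334 to 46366 RPM in nerve, 1031 to 1142 RPM in parental cells and 8.87 to 17.0 RPM in the clones. Within this sum, Mbp averaged 215 RPM in control and 1336 RPM in cAMP cells, whereas S100b fell from 1879 to 1579.7 RPM (limma adjusted p = 0.0018), and Sox10 was not called (adjusted p = 0.353). All these sums take each gene at its main TSS alone, the highest in nerve, and are not levels of whole genes. Pmp22 has 22 TSSs, and its main TSS averaged 36231 RPM in nerve, 1.29 RPM in control and 19.5 RPM in cAMP cells. Of 4 markers of mural cells, Pdgfrb had a row and rose, from 0.330 to 1.91 RPM in control to 22.4 to 26.9 RPM in cAMP libraries (log2 difference 3.84, adjusted p = 1.58e-06). Of 3 perineurial markers, Itgb4 had a row, at 0.0458 to 2.87 RPM in control and 3.53 to 5.09 RPM in cAMP libraries (log2 difference 1.59, adjusted p = 0.0591). Csf1r, a macrophage receptor, was at 0 in the primary cells, and no endothelial marker had a row. The part of all these markers, fibroblast ones included, in the Tgfbi difference was not tested.

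To ask whether the genes depended on SOX10, ΔSOX10 clones were compared with parental S16 cells in the same way over 3875 TSSs. Sparc and Tgfbi were tested, and neither was called by limma at an adjusted p of 0.05. At an unadjusted p of 0.05 the count was 1, Tgfbi. Over the same filtered TSSs, without Emilin1, edgeR and DESeq2 also called 0. Among all TSSs, 1.65% were called higher and 6.55% lower.

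Tgfbi differed between clones and parental cells by -1.87 on the log2 scale (SE 0.635, 95% interval -3.31 to -0.43, limma adjusted p = 0.127). The parental mean was 3.06 times the clone mean. The groups did not overlap, as at 29.4% of TSSs. Leaving out clone 1-1, whose Tgfbi level was the highest of the 4, gave -2.28 with an adjusted p of 0.0407. A fit of all 14 libraries in 1 model gave an adjusted p of 0.00554, so the call depended on how the spread was estimated.

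The 4 clones differed among themselves. Their Tgfbi levels spanned 6.92-fold and their Sparc levels 2.29-fold, with a coefficient of variation of 75.8% and 37.8%. Clones 1-1 and 1-2 averaged 24.0 RPM for Tgfbi and 4278 RPM for Sparc, against 5.91 and 7299 RPM in clones 2-1 and 2-2. Whether the 1st number of a clone's name stands for the guide RNA is not given in the labels, and this contrast was not tested. The fit takes the 4 clones as replicates and does not account for clones that share a guide. For Sparc the log2 difference between clones and parental cells was -0.33 (SE 0.306, interval -1.03 to 0.36, limma adjusted p = 0.627). The median of all TSSs tested was -0.18 on the RPM scale. With trimmed-mean (TMM) scaling it was -0.05, and Sparc then differed by -0.18 and Tgfbi by -1.72.

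The Emilin1 main TSS did not pass the filter of the S16 comparison, since 1 library was above 1 RPM. Taking 3 reads per library as the limit of counting error for the clones, the parental mean of 1.17 RPM was 14.6 times that limit. A cAMP library also had 0 beside others that were read, so this ratio is no lower bound on the difference. With no filter on low values its limma adjusted p was 0.0732. The parental value rests on 23 and 70 reads. The study, by its own edgeR test of counts, lists Emilin1 among the genes with a TSS that fell on loss of SOX10.

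**Figure D3:**
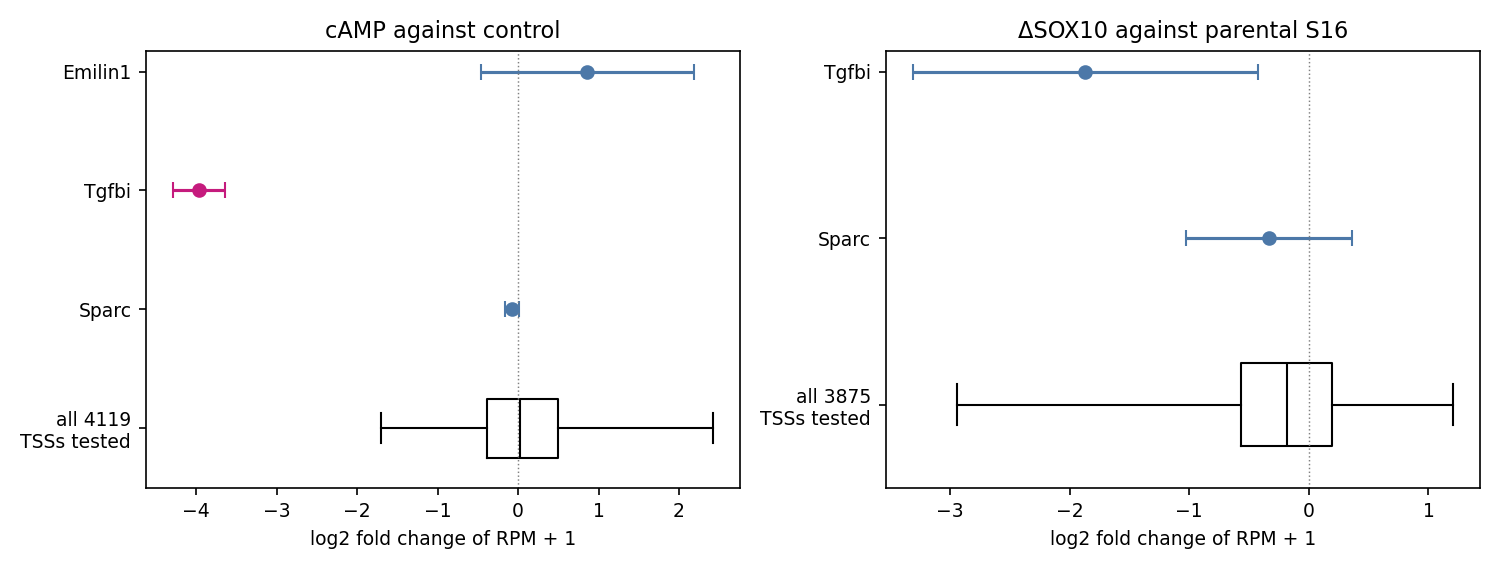
Log2 fold change of RPM + 1 with its 95% interval for the main TSSs tested, in cAMP against control cells (left) and ΔSOX10 against parental S16 cells (right), above a box of all TSSs tested (median, quartiles, whiskers over the middle 95%). Magenta marks an adjusted p under 0.05, which Tgfbi reached with cAMP (-3.97) and not in the clones (-1.87), and the Sparc intervals include 0 in both.

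Other matrix genes were taken from 8 lists of the pathways around the members. Besides the members, 34 listed genes had a row, none of them from the SPARC and matricellular list or the EMILIN and elastic fibre list. With cAMP, 7 of 32 tested main TSSs were higher and 13 lower, with a median of 0.01. Among the 2832 main TSSs tested in all genes, 13.5% were higher and 13.9% lower, with a median of -0.03.

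Collagen-modifying genes fell with cAMP in 4 of 6 cases and none rose. Fkbp14, a prolyl isomerase of the endoplasmic reticulum, fell by 1.61 on the log2 scale, and Serpinh1, a collagen chaperone, fell by 1.31. P4hb, a subunit of the prolyl hydroxylase that modifies collagen, fell by 0.59. Of 6 collagen genes, 3 fell, among them Col5a1 (-1.72) and Col5a2 (-1.49), and 2 rose, with Col5a3, another type V chain, at 2.66. Sparc, whose protein binds collagens, had the log2 difference of -0.07 given above.

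Of 4 other genes of the TGF-beta list, Tgfbr3, a co-receptor, rose by 4.53, while Furin, a protease that cleaves TGF-beta precursors, and Bambi, a pseudoreceptor, changed by -2.67 and -1.74. In the basal lamina list Vwa1 (3.61) and Lamb1 (2.84), a matrix protein and a laminin chain, rose, and 1 other did not pass the test. Among 8 matrix receptors, Cd44, the hyaluronan receptor, rose by 0.76, and Adgrg1 (-2.15), an adhesion receptor, and Itgb1 (-0.42), the beta-1 integrin chain, fell. Of 5 proteases and inhibitors, Timp3, a metalloproteinase inhibitor, rose by 2.89, whereas Adam9 (-2.13) and Adam19 (-1.42), membrane metalloproteinases, fell.

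In the clones, 10 of 30 tested genes of these lists were lower and 0 higher by limma. At an unadjusted p of 0.05, 2 were higher, and DESeq2 called 1 and edgeR 0. Without either of the parental libraries, 5 were lower. Over all main TSSs 1.99% were higher and 5.5% lower. The median was -0.16, against -0.17 over all genes. Col9a3 (-5.80), Col16a1 (-3.94) and Col6a1 (-2.88), chains of collagens IX, XVI and VI, were the lower collagens, of 7 tested. Vwa1 (-3.22) and Lamb1 (-1.48) of the basal lamina list were lower, as was Tgfbr3 (-2.67). Of 7 receptors 4 were lower, among them Itga6 (-3.05), an integrin chain that binds laminin, Adgrg1 (-3.05) and Ddr1 (-2.57), a collagen receptor. None of the 6 collagen-modifying genes was called.

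**Figure D4:**
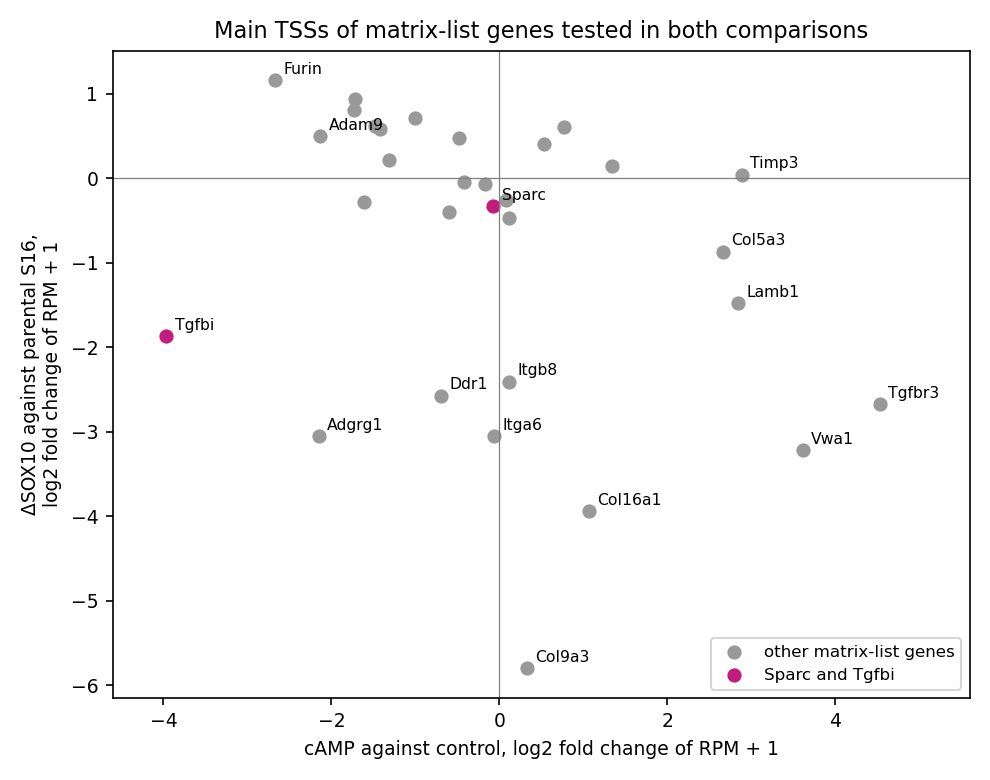
Log2 fold change of RPM + 1 for the 31 matrix-list main TSSs tested in both comparisons, cAMP against control on the horizontal axis and ΔSOX10 against parental S16 on the vertical axis, 1 point per gene. Tgfbi lies at -3.97 and -1.87 and Sparc at -0.07 and -0.33, and Vwa1, Lamb1 and Tgfbr3 lie at the lower right.

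The genes whose level across the 14 libraries was most like that of each member were found by Pearson's r of log2(RPM + 1). For Tgfbi they were Epdr1 (r = 0.958), Trim35 (0.929) and Pxn (0.908), out of 2064 main TSSs with a mean of at least 10 RPM. Epdr1 averaged 85.6 RPM in control and 22.0 RPM in cAMP cells, and Pxn, which encodes a focal adhesion adaptor, 93.8 and 20.5 RPM. For Sparc the closest were Tssc4 (0.897), Stk16 (0.888) and Mrps34 (0.876), each lowest in nerve like Sparc. For the Emilin1 main TSS, r was at most 0.770 (Mpc2), followed by Brcc3 (0.767) and Mrpl48 (0.766). The level of this TSS was at most 5.37 RPM and poorly determined within groups, so its r values are a weak description. The libraries within a group are not independent points in these correlations, which describe 5 groups more than 14 samples.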

How the data were processed

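Tn5Prime 5'-end reads of 14 rat libraries were analysed from a table of TSSs. Per the labels and the study's methods, the authors trimmed reads with cutadapt 1.14, mapped them to rn5 with STAR 2.5.2a, clustered read starts with Paraclu in sciatic nerve, and counted them with featureCounts (Subread 1.6.1). The authors deposited reads per 1000000 library reads (RPM) for TSSs within 1 kb of an H3K4me3 peak that overlaps a SOX10 peak in nerve. Whether deposited coordinates count from 0 or 1 is not given in the sources used here. The deposited log2 fold changes and FDR-corrected p-values of the authors' edgeR comparisons were not used.

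RPM values were whole multiples of 1 read, within 0.05 of a read, for 92.2 to 100% of values per library. In 4 libraries (both parental, clones 1-1 and 1-2) part of the values was rounded in the file. These reads served the count-based alternatives.

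Main tests were limma 3.58.1 (R 4.3.3) with a trended prior on log2(RPM + 1), keeping a TSS where 2 or more of the 6 libraries exceeded 1 RPM, with Benjamini-Hochberg adjustment over all TSSs tested and a threshold of 0.05. The scripts were tested on simulated data. Alternatives were pseudocounts of 0.1 and 5, no filter, a minimum mean of 5 RPM, TMM and median-ratio scaling, edgeR 4.0.16, DESeq2 1.42.0, TSSs summed per gene, all 14 libraries in 1 model, each library left out, and a replicate block. Same-numbered control and cAMP libraries were not taken as pairs.

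The members, gene lists and promoter motifs were chosen with earlier results of these data known. Named genes are all member TSSs, up to 3 called genes per list and comparison with the largest change, the 3 genes most like each member, Sox10, and cell type markers. Libraries came from separate RNA isolations, and p-values measure the spread between them. In the S16 comparison this mixes the spread between RNA samples of the parental line with that between clones. No pair of libraries within a group agreed within sampling noise. Of the Schwann cell markers, 1 is not reported here.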

Additional observations from a re-analysis of the deposited data

Results flagged for a closer look

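Dixon's ratio is the gap of the farthest clone to its nearest neighbour divided by the range of the 4 ΔSOX10 clones. It was computed for 34 main TSSs with a range above 0, and 7 were past its 95% critical value. About 5% of independent, normally distributed samples pass that value. These TSSs share the same 4 clones, and many were named because they were called. The count of 7 can therefore not be compared with that share. Neither Sparc nor Tgfbi was among them. For Itgb1 the ratio was 0.83, with 1 clone at 110.2 RPM and the others at 65.4 to 73.0 RPM. For Col6a1 it was 0.84, with 1 clone at 6.84 RPM and the others at 28.1 to 32.1 RPM. For Stk16 it was 0.977, with 1 clone at 60.8 RPM and the others at 34.3 to 35.0 RPM. For Epdr1 it was 0.889, with 1 clone at 17.0 RPM and the others at 12.1 to 12.6 RPM. The remaining flags are of genes near 0 in all clones, with ratios of 1 for Tgfbr3 (1 clone at 0.559 RPM, the others at 0), 1 for Col16a1 (0.0273 RPM against 0) and 0.896 for Col9a3 (0.547 RPM against 0 to 0.0570 RPM).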

How the results depend on the processing

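No member's direction reversed under the alternatives run, and single genes of the matrix lists were not followed across them. Emilin1 with cAMP, not called under any, ranged from 0.26 to 4.52 over the alternatives and from 0.62 to 1.32 with libraries left out. The Tgfbi decrease with cAMP was called under all 11 alternatives, at -4.01 to -3.80, and with each library left out, at -4.14 to -3.81, and Sparc was called under none, at -0.10 to -0.05 over all of these. In the clones, Tgfbi ranged from -1.98 to -1.53 over the alternatives and from -2.28 to -1.44 with libraries left out, with adjusted p between 0.00554 and 0.556. It passed, giving 1 member called, with all 14 libraries in 1 model (-1.87) and without clone 1-1 (-2.28), the members called ranging from 0 to 1 as libraries were left out. Sparc ranged there from -0.56 to -0.16. Counts moved by over 1.5 times as follows. With all 14 libraries, 288 TSSs were lower with cAMP (452 in the comparison as reported) and 1 matrix gene was higher in the clones. Requiring a mean of 5 RPM left 166 TSSs and 6 matrix genes lower in the clones (254 and 10). DESeq2 called 111 TSSs higher (64) and 1 matrix gene higher (0). With 1 S16 library left out, TSSs called higher ranged from 9 to 55, lower from 148 to 255, matrix genes lower from 5 to 11 and higher from 0 to 1. The lowest counts of TSSs came without 1 of the parental libraries, the lone parental library then being assumed to vary like the clones. The cause of these shifts, beyond the fewer libraries or TSSs entered, was not tested. With a replicate block in the cAMP comparison, 553 TSSs were higher and 467 lower, the Tgfbi adjusted p was 4.44e-18, and no call on a member changed. Same-numbered control and cAMP libraries deviated together with r of 0.0294, 0.0075 and 0.0379, so the numbers were not taken as pairs, and clone names do not pair with parental numbers. The planned tests of TSS use within a gene were not run, since no member gene had 2 TSSs past the filter.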
